A study of Mus musculus with 4 samples.

Results

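Transcripts of 7 protein kinase C (PKC) genes, Prkca, Prkcb, Prkcd, Prkce, Prkch, Prkcq and Prkci, and of Pdpk1, which encodes the kinase PDK1, were followed in mouse natural killer T (NKT) cells with and without stimulation of their antigen receptor. The 8 genes were taken by symbol, and all 8 have a row among the 12020 usable genes of the deposited count table. NKT cells are T lymphocytes that recognise lipids bound to CD1d. The tetramer group held 2 libraries of cells stimulated with mCD1d-PBS57 tetramers fixed to the plate, and the resting group held 2 libraries of cells left without them. All 4 libraries came from GFPhi cells sorted by FACS from Va14 Tg.cxcr6gfp/+ mice on the C57BL/6 strain, 10-12w of age, so cells of both groups carried the receptor transgene and 1 Cxcr6 allele with GFP. The labels give neither the promoter behind the transgene, nor the number of mice behind a library, nor the time in culture. The labels name liver as the tissue, whereas the sorting protocol speaks of livers or spleens and the extraction protocol of islets.

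PKC enzymes are serine and threonine kinases that relay lipid second messengers. Conventional isoforms (here Prkca and Prkcb) need calcium and diacylglycerol, calcium-independent isoforms (Prkcd, Prkce, Prkch and Prkcq) need diacylglycerol alone, and atypical isoforms (Prkci) need neither. PDK1 phosphorylates the activation loop of newly made PKC, and the kinase complex mTORC2 helps to phosphorylate sites near the carboxyl end. In T cells PKCθ, the product of Prkcq, gathers at the contact with the antigen-presenting cell and signals towards NF-κB. The study's title names PKCq, hexokinase 2, mTORC2 and Akt in relation to receptor signalling and interferon gamma, and the comparison asks how transcripts differ between stimulated and resting cells.

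The stretch that ties the 8 genes together is the kinase activation segment, since it holds the site that PDK1 phosphorylates in PKC and the matching site in PDK1 itself. The coding bases of this segment are shown for each gene from the GENCODE M21 transcript (GRCm38) with the longest coding sequence, on the coding strand, 5′ to 3′, from the codons of the D-F-G motif (D-Y-G in Prkci) to those of A-P-E (S-P-E in Pdpk1). Capitals mark the codon of the loop site.

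Prkca: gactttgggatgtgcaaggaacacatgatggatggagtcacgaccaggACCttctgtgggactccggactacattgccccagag
Prkcb: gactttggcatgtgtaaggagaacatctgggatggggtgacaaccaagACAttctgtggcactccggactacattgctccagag
Prkcd: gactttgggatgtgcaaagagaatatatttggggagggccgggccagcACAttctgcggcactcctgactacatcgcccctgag
Prkce: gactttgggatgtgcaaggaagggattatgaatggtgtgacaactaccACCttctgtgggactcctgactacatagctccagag
Prkch: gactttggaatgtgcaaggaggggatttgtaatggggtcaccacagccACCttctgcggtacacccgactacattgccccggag
Prkcq: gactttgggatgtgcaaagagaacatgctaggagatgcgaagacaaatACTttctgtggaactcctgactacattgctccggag
Prkci: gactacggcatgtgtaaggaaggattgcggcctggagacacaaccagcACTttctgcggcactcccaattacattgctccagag
Pdpk1: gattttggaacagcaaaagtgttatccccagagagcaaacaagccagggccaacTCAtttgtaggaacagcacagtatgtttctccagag

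The loop site is a threonine in all 7 PKC genes, at residue 538 of PKCθ and residue 497 of PKCα, and a serine at residue 244 of PDK1, counted in those transcripts. Over the 84 bases of the segment, Prkcq was identical to the other PKC members at between 64.3% (Prkci) and 76.2% of bases (Prkca, Prkcb and Prkcd). The closest pairs were Prkca with Prkcb and Prkca with Prkce, each identical at 83.3%. Along whole transcripts, Prkcq and Prkch shared none of their 30-base words with a transcript of another gene, and the share reached 2.09% in Prkci. Prkca shared 27 of its 8380 words, and its annotated exons overlap 30 bases of Apoh on the opposite strand. Read length and the use of strand in counting are unknown, so these shares describe the transcripts and not the reads.

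Each library held between 4168438 and 5495521 counts. Across genes, which are not independent replicates, Pearson's r of log2 CPM (counts scaled to a common library size) was 0.956 between the tetramer libraries, 0.926 between the resting libraries, and 0.787 to 0.838 between libraries of different groups. All 12 NKT and T cell markers sought were in the table, with summed levels of 3522 and 4376 CPM in tetramer libraries 4 and 5 and 4263 and 3925 CPM in resting libraries 4 and 5. Within these sums 1 marker was called higher and 2 were called lower. Zap70 had 478 and 369 CPM in the tetramer libraries and 149 and 188 CPM in the resting libraries. Cxcr6, whose locus drives the GFP of the sort, had 414 and 718 CPM in the tetramer libraries and 1617 and 1102 CPM in the resting libraries. Klrb1c, which encodes NK1.1, had 2.86 and 13.6 CPM in the tetramer libraries and 114 and 174 CPM in the resting libraries. Of 9 myeloid markers 5 were listed, and they summed to 10.0 and 12.9 CPM in the tetramer libraries and 39.8 and 43.6 CPM in the resting libraries. The 5 listed of 7 B cell markers summed to 16.6 and 17.4 CPM in the tetramer libraries and 22.4 and 32.7 CPM in the resting libraries. For 6 listed of 7 dendritic cell markers, of which Xcr1 was the most abundant, the sums were 154 and 344 CPM in the tetramer libraries and 366 and 422 CPM in the resting libraries. Erythroid and platelet markers (3 of 6 listed) summed to 19.2 and 45.9 CPM in the tetramer libraries and 89.9 and 247 CPM in the resting libraries. Hepatocyte markers (4 of 8 listed, without Alb) summed to 50.7 and 35.0 CPM in the tetramer libraries and 64.0 and 74.2 CPM in the resting libraries. Pecam1, the only one listed of 7 endothelial and stellate markers, was at 10.2 and 15.8 CPM in the tetramer libraries and 75.0 and 28.8 CPM in the resting libraries. Defining markers such as Alb, Lyz2, Pax5 and Kdr have no usable row and were not analysed here.

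Among the 8 genes, the transcript of PKCα rose after stimulation and that of PDK1 fell. The size of the fall depended on resting library 4 (log2 fold change, tetramer over resting, -1.39, and -0.54 without it). Transcripts of PKCθ and of the other PKC genes did not pass the test. CPM here are scaled by TMM, a method that sets libraries to a common level for most genes. Differences were tested by edgeR's quasi-likelihood test with Benjamini-Hochberg adjustment over 11312 genes and were called where the adjusted p was under 0.05. Of the 8 genes, 7 passed the filter on low counts; 1 was higher, 1 was lower and 5 passed in neither direction (3 of the 7 had an unadjusted p under 0.05). Over all genes tested, 26.4% passed, 14.3% higher and 12.1% lower. In 5 of the 7 tested members the CPM of the groups did not overlap, and over all genes tested that held for 65.2%. The median log2 fold change of the 7 was 0.09, beside -0.06 over all genes tested. With library totals in place of TMM the median of all genes was -0.35, so directions below are relative to the TMM scale. In such pooled RNA, fewer cells that express a gene and less RNA per cell cannot be told apart.

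**Figure D1:**
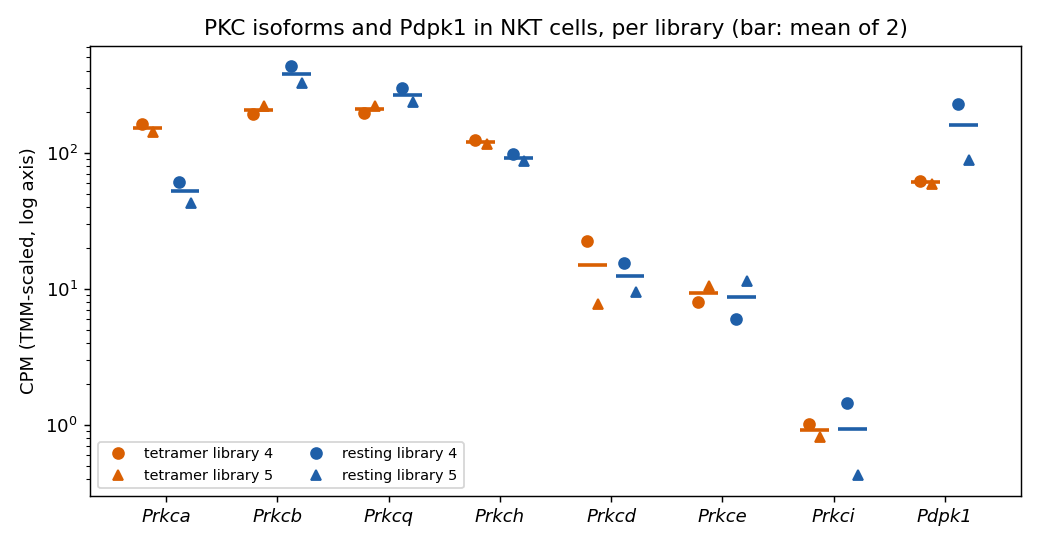
CPM (TMM-scaled, log axis) of the 8 genes in each library, with tetramer libraries in orange, resting libraries in blue, circles for libraries numbered 4, triangles for libraries numbered 5, and bars for the mean of 2. Prkca lies at 161 and 143 CPM in the tetramer libraries, above 60.9 and 43.0 CPM in the resting libraries, and Pdpk1 is highest in resting library 4.

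Prkca, the conventional isoform PKCα, had 161 and 143 CPM in tetramer libraries 4 and 5, against 60.9 and 43.0 CPM in resting libraries 4 and 5. Both tetramer libraries stood above both resting libraries. Its level was 152 ± 13.2 CPM in tetramer and 51.9 ± 12.7 CPM in resting cells (SD, n = 2 each), a log2 fold change of 1.55 ± 0.38 (SE, 95% interval 0.77 to 2.32, edgeR adjusted p = 0.00368). That rise was called under all 11 alternatives run, with log2 fold changes between 1.24 and 1.84 and adjusted p between 6.94e-04 and 0.0493.

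Prkcb, the other conventional isoform, which encodes PKCβ and is prominent in B cells, lay on the other side. It had 193 and 222 CPM in tetramer libraries 4 and 5, against 430 and 324 CPM in resting libraries 4 and 5. The groups did not overlap, but the log2 fold change of -0.86 ± 0.36 (SE, 95% interval -1.61 to -0.12) missed the threshold (adjusted p = 0.0794 by edgeR's quasi-likelihood test). It was past the threshold with library totals in place of TMM (-1.16, edgeR adjusted p = 0.0192). The B cell marker sums given above were also lower in both tetramer libraries, and their part in this value was not tested.

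Set against each other within a library, where scaling cancels, the 2 conventional isoforms shifted in balance. Prkca had 0.836 and 0.643 counts for each count of Prkcb in tetramer libraries 4 and 5, against 0.142 and 0.133 in resting libraries 4 and 5. That is a 5.35-fold higher ratio in tetramer libraries by the geometric mean. With 2 libraries against 2 an exact permutation test cannot go below a two-sided p of 0.333, and this ratio gave that value. Corrected for coding length, the ratios were 0.837 and 0.644 in tetramer libraries 4 and 5, and 0.142 and 0.133 in resting libraries 4 and 5, since the 2 coding sequences have 2016 and 2019 bases.

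Prkcq, for PKCθ, had 196 and 221 CPM in tetramer libraries 4 and 5, against 297 and 237 CPM in resting libraries 4 and 5. Both tetramer libraries were lower than both resting ones. The log2 fold change was -0.36 ± 0.36 (SE, adjusted p = 0.490), and its 95% interval of -1.09 to 0.38 reaches to both sides of 0. Prkch, which encodes PKCη, a calcium-independent isoform close to PKCθ in domain structure, had 125 and 117 CPM in tetramer libraries 4 and 5, against 97.4 and 86.3 CPM in resting libraries 4 and 5. The groups of Prkch did not overlap either, with a log2 fold change of 0.39 ± 0.36 (SE, 95% interval -0.35 to 1.13, adjusted p = 0.444). Neither gene was called under any of its 11 alternatives. For each count of Prkcq there were 0.636 and 0.528 counts of Prkch in tetramer libraries 4 and 5, against 0.328 and 0.365 in resting libraries 4 and 5 (exact permutation p = 0.333, two-sided).

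The remaining calcium-independent isoforms were scarce. Prkcd, for PKCδ, which restrains B cells and is abundant in myeloid cells, had 22.3 and 7.69 CPM in tetramer libraries 4 and 5, against 15.5 and 9.40 CPM in resting libraries 4 and 5. Prkce, for PKCε, had 7.98 and 10.5 CPM in tetramer libraries 4 and 5, against 6.01 and 11.3 CPM in resting libraries 4 and 5. In both genes the groups overlapped, and the spread within a group exceeded the difference between groups. Their log2 fold changes were 0.26 (95% interval -0.88 to 1.41, adjusted p = 0.762) and 0.09 (95% interval -1.10 to 1.29, adjusted p = 0.923). The sign of Prkcd turned without tetramer library 4 (-0.68) or resting library 5 (-0.03), and that of Prkce without tetramer library 5 (-0.11) or resting library 4 (-0.28). With library totals both were below 0 (-0.05 and -0.18). Myeloid markers, whose sums are given above, were lower in the tetramer libraries, and their part in the Prkcd values was not tested.

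Prkci, the atypical isoform PKCι, a partner of cell polarity proteins, was near the limit of detection, with 5 and 4 counts in tetramer libraries 4 and 5 and 7 and 2 counts in resting libraries 4 and 5. It did not pass the filter and was not tested. The ratio of its scaled counts, summed over tetramer and over resting libraries, was 0.967, with an exact 95% interval of 0.340 to 2.75 that covers counting error only. No difference was detectable at this depth.

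Pdpk1, for PDK1, was the member that fell. It is distinct from Pdk1, the symbol of pyruvate dehydrogenase kinase. Pdpk1 had 61.6 and 59.3 CPM in tetramer libraries 4 and 5, against 229 and 88.5 CPM in resting libraries 4 and 5. The tetramer libraries were close to each other and below both resting libraries, which lay far apart. Its level was 60.4 ± 1.64 CPM in tetramer and 159 ± 99.3 CPM in resting cells (SD, n = 2 each), with a log2 fold change of -1.39 ± 0.41 (SE, 95% interval -2.23 to -0.55, edgeR adjusted p = 0.0134). Without resting library 4 the log2 fold change was -0.54 (adjusted p = 0.411), so the size of this fall rested on that library. It was also not called without tetramer library 4 (-1.40, with 0.0979) or tetramer library 5 (-1.36, with 0.0680 as adjusted p), and it was called under the other 8 of 11 alternatives.

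**Figure D2:**
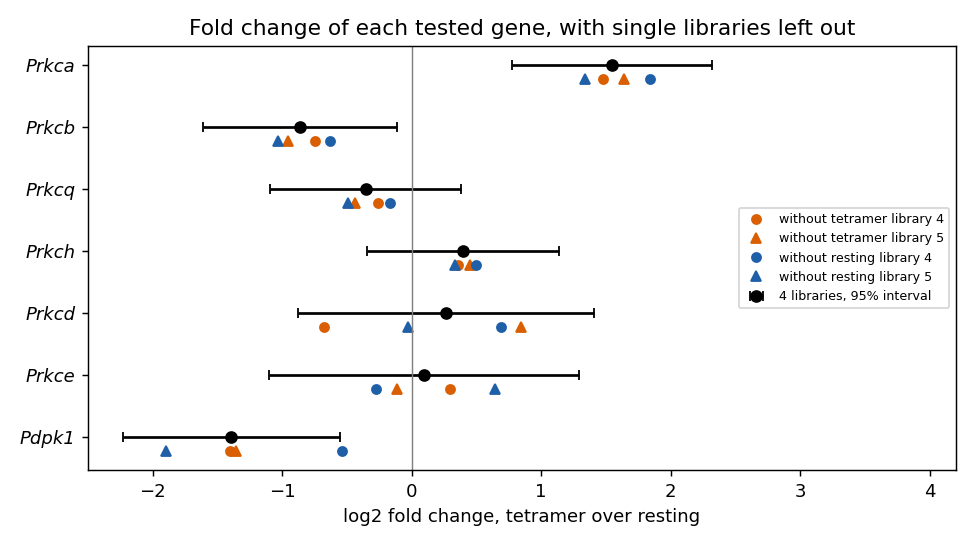
Log2 fold change (tetramer over resting) of the 7 tested genes, with black points and 95% intervals for all 4 libraries and coloured symbols for the value without each library. Prkca stays between 1.34 and 1.84 when single libraries are left out, Pdpk1 lies between -1.90 and -0.54, and Prkcd and Prkce fall on both sides of 0.

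The summed level of the PKC genes overlapped between groups, while the shares of Prkca, Prkcb, Prkcq and Prkch did not. Lack of overlap was common in these data, since the CPM of the groups did not overlap in 65.2% of all genes tested. The 7 PKC members summed to 707 and 721 CPM in tetramer libraries 4 and 5, against 909 and 711 CPM in resting libraries 4 and 5. The groups overlapped, with means of 714 ± 10.0 CPM in tetramer and 810 ± 140 CPM in resting cells (SD, n = 2 each, exact permutation p = 0.667, two-sided). Without resting library 4 the log2 ratio of these means was 0.01 in place of -0.18, and with library totals it was -0.48.

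Prkca made up 22.8% and 19.8% of PKC counts in tetramer libraries 4 and 5, against 6.70% and 6.04% in resting libraries 4 and 5. Prkcb made up 27.3% and 30.8% in tetramer libraries 4 and 5, against 47.3% and 45.6% in resting libraries 4 and 5. The share of Prkca was higher and that of Prkcb lower in both tetramer libraries than in both resting libraries. For Prkca the exact 95% interval ran from 18.5% to 21.1% in tetramer library 5 and from 5.98% to 7.48% in resting library 4. These intervals cover counting error only, and libraries of a group can differ by more. Those of Prkcd, for example, did not meet between tetramer libraries 4 and 5 (2.60% to 3.80%, and 0.756% to 1.46%). Prkcq held 27.8% and 30.6% in tetramer libraries 4 and 5, against 32.7% and 33.3% in resting libraries 4 and 5. Prkch held 17.7% and 16.2% in tetramer libraries 4 and 5, against 10.7% and 12.1% in resting libraries 4 and 5. For each of these 4 shares the exact permutation test gave a two-sided p of 0.333. Any 2 groups of this size without overlap give that value, so it adds nothing to the lack of overlap. The shares of a library have a fixed total, so a higher share of Prkca alone would lower the others. The 4 shares are thus not separate results. For Prkcq the difference, tetramer minus resting, was -3.80 percentage points by counts and 0.026 per length of the whole transcript. Prkcd, Prkce and Prkci held at most 3.16%, 1.59% and 0.160% in any library, with overlapping groups.

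As a class, the conventional isoforms together held 50.1% and 50.6% of PKC counts in tetramer libraries 4 and 5, against 54.0% and 51.6% in resting libraries 4 and 5. The calcium-independent isoforms held 49.7% and 49.3% in tetramer libraries 4 and 5, against 45.8% and 48.3% in resting libraries 4 and 5. The class totals thus differed by fewer percentage points than the shares of Prkca (14.9 higher in tetramer libraries) and Prkcb (17.4 lower), which lie within 1 class. A share of counts is not a share of molecules, since longer transcripts give more counts. Corrected for coding length, the difference between the groups' mean shares was 15.2 percentage points for Prkca, -17.8 for Prkcb, -3.71 for Prkcq and 5.49 for Prkch, tetramer minus resting.

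**Figure D3:**
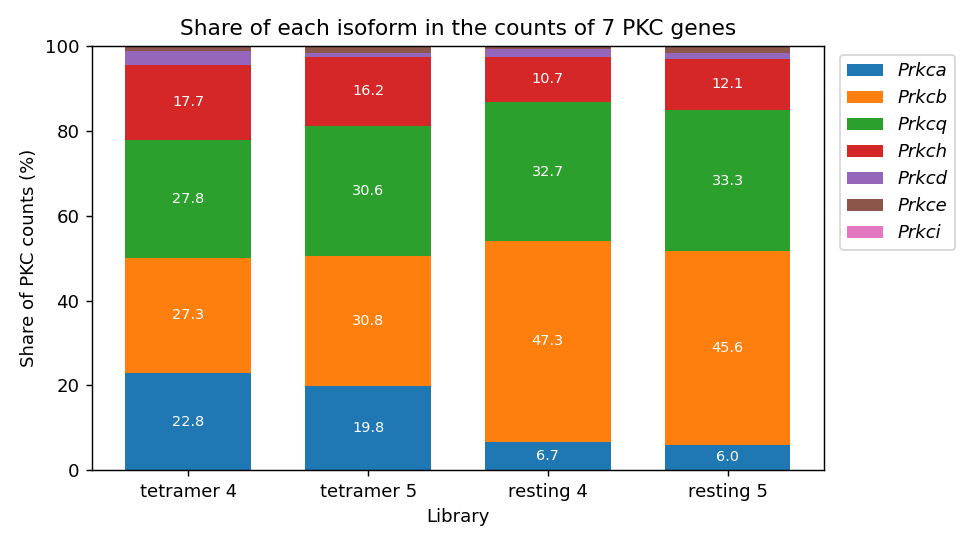
Share of each isoform in the counts of the 7 PKC genes, in percent, as 1 stacked bar per library, tetramer libraries at left and resting libraries at right. Prkca takes 22.8% and 19.8% of the tetramer bars and 6.70% and 6.04% of the resting bars, with the reverse shift in Prkcb.

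Ordered by mean CPM per kilobase of coding sequence, tetramer cells had Prkcb (103) and Prkcq (98.3) at the top, whose libraries overlapped, then Prkca (75.4), Prkch (58.9), Prkcd (7.14), Prkce (4.18) and Prkci (0.513). In resting cells the order on the same scale was Prkcb (187), Prkcq (126), Prkch (44.8), Prkca (25.8), Prkcd (5.94), Prkce (3.92) and Prkci (0.526). Neighbours other than Prkcb and Prkcq in tetramer cells, and Prkcd and Prkce in both groups, did not overlap between libraries. Prkca and Prkch thus changed places on this scale. Per kilobase of the whole transcript, Prkch stayed above Prkca in both groups, at 34.0 against 18.1 CPM in tetramer cells and 25.9 against 6.18 CPM in resting cells, because the Prkca transcript used has 8409 bases and that of Prkch 3545. Which length applies to these size-selected libraries is not known.

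The genes whose profile over the 4 libraries was most like that of Prkcq were Wipf2, Mllt6 and Zcchc7. After centring log2 CPM on each gene's mean, they differed from Prkcq by a root mean square of 0.02, 0.02 and 0.03 among 7881 genes compared. Wipf2, for example, had 78.0 and 87.8 CPM in tetramer libraries 4 and 5, against 121 and 93.8 CPM in resting libraries 4 and 5. Closest to Pdpk1 were Fbxo4, Itch and Tbk1, at 0.05, 0.07 and 0.11 on the same measure. Each of these 3 was likewise highest in resting library 4, as in Itch, an E3 ubiquitin ligase, with 13.1 and 12.7 CPM in tetramer libraries 4 and 5 and 44.5 and 17.5 CPM in resting libraries 4 and 5. So few libraries leave many genes with like profiles, and the measure is a description.

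Around the 8 genes, 8 lists held 108 further genes of the pathway, of which 88 were tested. In total 9 were higher and 14 were lower, with a median log2 fold change of -0.33, beside 14.3% higher, 12.1% lower and a median of -0.06 over all genes. Leaving out tetramer library 4 gave 4 in each direction, and leaving out tetramer library 5 gave 7 lower genes. With library totals 27 were lower, and among genes with a mean of at least 10 CPM 9 were lower.

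Kinases related to PKC were lower in 3 of 7 tested cases and higher in 0 (4 with an unadjusted p under 0.05, and 0 higher by DESeq2 or limma-voom). The lower count was 1 without tetramer library 4 and 1 without tetramer library 5. Prkd3, which encodes protein kinase D3, a kinase switched on by PKC and diacylglycerol, had 67.7 and 92.8 CPM in tetramer libraries 4 and 5, against 512 and 335 CPM in resting libraries 4 and 5. Its groups stood far apart, with a log2 fold change of -2.40 ± 0.39 (SE, edgeR adjusted p = 6.41e-05). Prkcz, for the atypical PKCζ, had 21 and 15 counts in tetramer libraries 4 and 5, against 77 and 56 counts in resting libraries 4 and 5 (log2 fold change -1.92, adjusted p = 0.0199). It shares 45.1% of its 30-base words with other transcripts, all with Prkcz2, so its reads may be uncertain. Prkcz was not called without tetramer library 4 (adjusted p = 0.137) or tetramer library 5 (0.193).

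Phospholipase C makes diacylglycerol, the lipid that activates conventional and calcium-independent PKC. Of 6 tested phospholipase C genes 1 was higher and 1 was lower (median -0.10), and both counts were 0 without either tetramer library and under the stricter filter of 10 CPM. Plcg2, which hydrolyses phospholipids downstream of immune receptors, had 34 and 44 counts in tetramer libraries 4 and 5, against 3 and 9 counts in resting libraries 4 and 5 (log2 fold change 2.62, edgeR adjusted p = 0.00939). Plcg1, which also acts downstream of such receptors, was not called (log2 fold change -0.20, edgeR adjusted p = 0.866). Plcb1, a phospholipase downstream of G proteins, was scarce, at 4 and 7 counts in tetramer libraries 4 and 5 and 17 and 28 counts in resting libraries 4 and 5 (log2 fold change -2.06, adjusted p = 0.0364). Plcg2 was not called without tetramer library 4 (edgeR adjusted p = 0.0736) or without tetramer library 5 (0.111). Plcb1 was not called by DESeq2 (0.110), by limma-voom (0.0580), or without resting library 5 (0.0947), tetramer library 4 (0.425) or tetramer library 5 (0.191).

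Of 6 tested diacylglycerol kinases, which remove diacylglycerol, 1 was lower and 0 were higher (median 0.08, 2 with an unadjusted p under 0.05). Without resting library 4 there were 2 lower and 1 higher, with library totals 2 were lower, without a filter 1 was higher, and without tetramer library 4 none was called in either direction. Dgka had 200 and 240 CPM in tetramer libraries 4 and 5, against 743 and 594 CPM in resting libraries 4 and 5 (log2 fold change -1.60 ± 0.37 (SE), edgeR adjusted p = 0.00249, and 0.0796 without tetramer library 4). Of 7 tested genes from families that include other diacylglycerol receptors, 1 was higher and 1 was lower (median -1.32). Not every member of these families need bind diacylglycerol. Leaving out resting library 4 gave 3 lower genes, leaving out resting library 5 gave 2, and library totals gave 4; the higher count was 0 without tetramer library 4. Rasgrp1, the Ras activator of T cells, had 51.6 and 44.7 CPM in tetramer libraries 4 and 5, against 215 and 162 CPM in resting libraries 4 and 5 (log2 fold change -1.97, adjusted p = 4.21e-04). Unc13d, needed for release of cytotoxic granules, had 33.4 and 17.8 CPM in tetramer libraries 4 and 5, against 4.97 and 7.91 CPM in resting libraries 4 and 5 (log2 fold change 1.99, adjusted p = 0.00835, and 0.256 without tetramer library 4).

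The IKK and NF-κB module, through which PKCθ signals, had 1 higher and 2 lower genes of 16 tested (median -0.35). The lower count was 0 under 8 of 11 alternatives. Nfkb1, a subunit of NF-κB, had 70.4 and 118 CPM in tetramer libraries 4 and 5, against 42.3 and 39.5 CPM in resting libraries 4 and 5 (log2 fold change 1.20, edgeR adjusted p = 0.0255). Chuk, the kinase IKKα, had 13.1 and 7.28 CPM in tetramer libraries 4 and 5, against 45.6 and 12.2 CPM in resting libraries 4 and 5 (log2 fold change -1.50, adjusted p = 0.0473). The call of Chuk was lost under 8 of 11 alternatives, among them the omission of resting library 4 (edgeR adjusted p = 0.802), tetramer library 4 (0.0853) and tetramer library 5 (0.283). Nfkb1 was not called with library totals (0.0885), without resting library 5 (0.0604) or without tetramer library 5 (0.348).

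Among 16 tested genes that prime, fold or dephosphorylate PKC, 3 were higher and 2 were lower (median 0.19). The lower count was 1 by limma-voom and without either tetramer library. The cytosolic chaperones Hsp90aa1 and Hsp90ab1, which hold kinases such as PKC in a form that can be phosphorylated, had the largest rises of the 3. Hsp90aa1 had 2679 and 2656 CPM in tetramer libraries 4 and 5, against 443 and 517 CPM in resting libraries 4 and 5 (log2 fold change 2.47, edgeR adjusted p = 5.61e-05). For Hsp90ab1 the log2 fold change was 2.47 (adjusted p = 6.55e-05). Phlpp1, a phosphatase of the carboxyl-terminal site in PKC and Akt, had 3.89 and 7.89 CPM in tetramer libraries 4 and 5, against 30.7 and 46.2 CPM in resting libraries 4 and 5 (log2 fold change -2.70, adjusted p = 4.87e-04). These 3 calls held without any single library. Heat shock protein genes have processed pseudogenes whose reads the counting could have split.

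Of 10 tested kinases that PDK1 also activates, such as Akt, S6 kinase and SGK, 0 passed in either direction by edgeR (median -0.22). The smallest p belonged to Sgk3, with 22.3 and 41.1 CPM in tetramer libraries 4 and 5, against 37.1 and 108 CPM in resting libraries 4 and 5 (log2 fold change -1.19, adjusted p = 0.0558). It was called with library totals (adjusted p = 0.0157), without resting library 4 (0.00193), without tetramer library 5 (0.0376) and with the column number as a replicate block (0.0498). Unadjusted p was under 0.05 for 3 of the 10, and DESeq2 and limma-voom also called 0. Over the whole list, 3 were lower with library totals, 2 were lower without resting library 5, and 1 was higher and 1 lower without tetramer library 5.

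Substrates, scaffolds and polarity partners of PKC were higher in 3 and lower in 4 of 20 tested cases (median -0.51). The lower count was 8 with library totals, 1 without tetramer library 4 and 2 without tetramer library 5. The higher count was 1 without resting library 4 and 1 without tetramer library 4. Add3, an adducin of the membrane skeleton, had 18.0 and 32.4 CPM in tetramer libraries 4 and 5, against 188 and 141 CPM in resting libraries 4 and 5 (log2 fold change -2.71, edgeR adjusted p = 2.77e-05). Stk39, which encodes SPAK, a kinase that PKCθ phosphorylates, had 61.8 and 59.7 CPM in tetramer libraries 4 and 5, against 12.6 and 13.2 CPM in resting libraries 4 and 5 (log2 fold change 2.23, adjusted p = 5.38e-04). Both calls held without any single library. Pard6a, which binds atypical PKC in polarity complexes, had 24 and 17 counts in tetramer libraries 4 and 5, against 4 and 5 counts in resting libraries 4 and 5 (log2 fold change 2.11, adjusted p = 0.0344). That call was lost without tetramer library 4 (adjusted p = 0.396), tetramer library 5 (0.171) or resting library 4 (0.0709), by DESeq2 (0.113), by limma-voom (0.0583) and with library totals (0.0585).

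**Figure D4:**
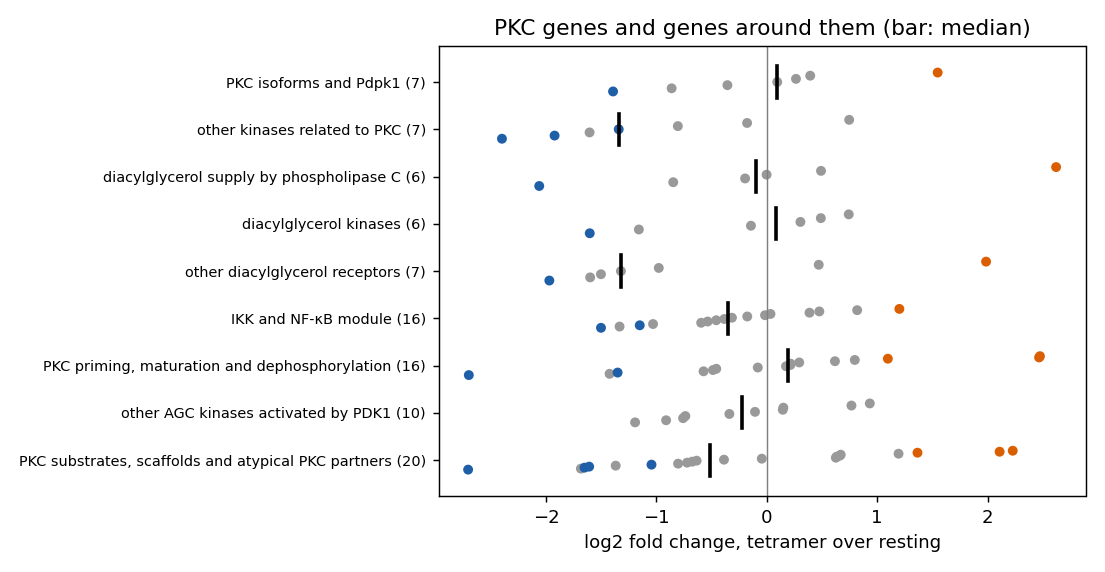
Each tested gene of the PKC set and of the 8 lists around it by its log2 fold change (tetramer over resting), with the number tested in parentheses, black bars at medians, orange for genes called higher, blue for genes called lower and grey for the rest. The PKC set holds 1 orange and 1 blue point, and the related kinases hold 3 blue points and no orange one.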

How the data were processed

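The deposited table holds raw read counts per gene symbol for 2 tetramer and 2 resting libraries, as its values show. Bowtie2, DESeq2 and mm9 are named in the submitters' processing notes, without a role, and the counting of reads is not described there. No count is below 1, and 1 of 12021 genes was left out for a cell that is not a number. Columns numbered 4 and 5 were matched to groups by name, not to single samples. Whether the libraries of a group stem from different mice is not stated, so a p-value reflects the spread of these libraries alone, which may be technical. With 2 residual degrees of freedom, the edgeR fit shares information on that spread across genes. An SE or p-value of a gene thus does not rest on its own counts alone. Counts were fitted with edgeR 4.0.16 in R 4.3.3 over 11312 genes past its default filter, with TMM; SEs come from the F statistic. Alternatives used DESeq2 1.42.0, limma 3.58.1, other scalings and filters, a replicate block and omission of each library. Shares have exact (Clopper-Pearson) 95% intervals, which cover counting error only. Lengths and sequences come from GENCODE M21, another build than mm9, so no coordinates are given. The 8 members and the lists were chosen with earlier results of these data known. Named from each list were up to 3 called genes with the largest change, or else the gene with the smallest p, and for Prkcq and Pdpk1 the 3 genes of like profile with a mean of at least 10 CPM. Plcg1 was named beside Plcg2 outside this rule. Results for some genes that this rule names are not reported here.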

Additional observations from a re-analysis of the deposited data

How the results depend on the processing

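Across 11 alternatives the count of members called higher was 1 throughout, by Prkca. The count called lower, 1 in the fit on 4 libraries, was 2 with library totals and lay between 0 and 1 without single libraries. Over all genes, 2250 were lower with library totals (1366 with TMM), and with single libraries left out the counts ran from 622 to 1629 higher and from 313 to 1488 lower. Pathway genes called ranged from 4 to 8 higher and from 4 to 16 lower without single libraries, 27 were lower with library totals and 9 under the filter of 10 CPM. Per length of the whole transcript, a choice made after seeing the data, the share differences (tetramer minus resting) were 7.07 percentage points for Prkca, 7.29 for Prkch and 0.026 for Prkcq, the last with its sign turned, because Prkca has the longest transcript. The log2 ratio of summed PKC CPM was -0.48 with library totals and ran from -0.35 to 0.0059 without single libraries. Signs turned for Prkcd with library totals (-0.053) and without tetramer library 4 (-0.68) or resting library 5 (-0.03), and for Prkce with library totals (-0.18) and without tetramer library 5 (-0.11) or resting library 4 (-0.28). Without single libraries Prkcd ran from -0.68 to 0.84 and Prkce from -0.28 to 0.64. The cause of the other changes was not tested. Whether library numbers pair the samples is not stated. Across genes, the difference between libraries 4 and 5 correlated between groups at 0.05. This value cannot decide it, since pairs with a weak shared effect could give the same. With the number as a replicate block, 1 member was higher and 1 lower, with Prkca at 1.57 and Pdpk1 at -1.24 on the log2 scale. With 2 libraries a group, 1 residual degree of freedom is left under the block, and Prkci, at 2 to 7 counts, is limited by depth.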
